A study of Mus musculus with 11 samples.

Results

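RNA counts of 10 collagen chain genes outside the fibrillar family were compared between orthotopic pancreatic tumours of 6 mice in which the gene of protein kinase N2 (PKN2) had been deleted (KO) and 5 wild-type mice (WT). The 10 genes, Col6a1, Col6a2, Col6a3, Col8a1, Col10a1, Col12a1, Col14a1, Col15a1, Col16a1 and Col18a1, were named as a list of type VI, FACIT (fibril-associated collagens with interrupted triple helices) and multiplexin chains. No measured value enters this definition, although earlier results of these data were known when the list was made, and all 10 were found among the 54232 Ensembl gene identifiers of the count table. Col8a1 and Col10a1 encode short-chain network-forming collagens, which belong to none of these families, and they are described below under that name. All hosts were female C57BL/6 mice with 1 copy of a tamoxifen-inducible Cre recombinase, CreERT2, at the Rosa26 locus. KO hosts carried floxed Pkn2 on both alleles (fl/fl), WT hosts had intact Pkn2 (+/+), and both groups were given tamoxifen. Every tumour was started from 1000 TB32048 cells, a pancreatic carcinoma line of C57BL/6 origin with intact Pkn2, placed in the pancreas with Matrigel. Because the Cre was not limited to 1 cell type, the deletion could occur in any host cell, stellate cells included, whereas carcinoma cells kept the gene. One tumour per animal was sequenced in bulk, so that fewer cells of a type and less RNA per cell cannot be told apart in any value below.

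Type VI collagen is assembled from 3 different chains into beaded microfilaments that lie close to cells and link them to the interstitial matrix. FACIT collagens do not form fibrils of their own and sit on the surface of collagen I fibrils. The multiplexins, types XV and XVIII, are proteoglycans of basement membrane zones, and fragments cut from their C-terminal ends, endostatin among them, act on endothelial cells. Together these chains are part of the desmoplastic stroma that fills pancreatic carcinomas, where fibroblasts, stellate cells, pericytes and vessels all contribute matrix.

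The 3 type VI chains are shown first by the sequence in front of their genes, because their products combine in 1 molecule and because Col6a1 and Col6a2 are neighbours. On GRCm38, Col6a2 (chr10:76595762-76623630) and Col6a1 (chr10:76708792-76726168) lie 85.2 kb apart on the minus strand of chromosome 10, and Col18a1 (chr10:77052178-77166548) follows on the same strand 326 kb further on. Col6a3 (chr1:90765923-90843971, minus strand) lies elsewhere. RefSeq promoter windows (GRCm38.p6) were found for 8 of the 10 genes, all but Col12a1 and Col14a1. The windows below are the bases before the annotated start, 5′ to 3′ on the gene's strand, with capitals marking any match to 5 motifs searched on both strands: the GC box, the CCAAT box, the TATA box, the AP-1 site and the TEAD site. Col18a1 and Col10a1 were added as the genes with the highest and the lowest RNA level per kilobase.
Col6a1, chr10:76726169-76726294, minus strand: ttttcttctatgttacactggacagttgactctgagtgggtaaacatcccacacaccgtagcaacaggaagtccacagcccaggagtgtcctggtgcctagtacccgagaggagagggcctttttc
Col6a2, chr10:76623631-76623880, minus strand: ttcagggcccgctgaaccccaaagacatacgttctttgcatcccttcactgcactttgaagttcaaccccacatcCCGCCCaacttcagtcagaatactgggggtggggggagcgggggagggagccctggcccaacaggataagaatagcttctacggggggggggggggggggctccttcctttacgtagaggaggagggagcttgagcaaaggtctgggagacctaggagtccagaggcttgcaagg
Col6a3, chr1:90843972-90844221, minus strand: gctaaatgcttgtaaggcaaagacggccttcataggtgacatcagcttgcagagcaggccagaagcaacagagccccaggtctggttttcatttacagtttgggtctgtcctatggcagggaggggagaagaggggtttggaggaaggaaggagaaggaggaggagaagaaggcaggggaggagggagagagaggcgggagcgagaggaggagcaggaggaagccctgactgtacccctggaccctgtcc
Col18a1, chr10:77166549-77166780, minus strand: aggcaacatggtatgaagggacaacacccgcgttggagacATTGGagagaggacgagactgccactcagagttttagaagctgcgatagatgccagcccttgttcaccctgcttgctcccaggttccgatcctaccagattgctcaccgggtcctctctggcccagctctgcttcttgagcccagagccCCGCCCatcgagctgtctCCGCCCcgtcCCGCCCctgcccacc
Col10a1, chr10:34389731-34389980, plus strand: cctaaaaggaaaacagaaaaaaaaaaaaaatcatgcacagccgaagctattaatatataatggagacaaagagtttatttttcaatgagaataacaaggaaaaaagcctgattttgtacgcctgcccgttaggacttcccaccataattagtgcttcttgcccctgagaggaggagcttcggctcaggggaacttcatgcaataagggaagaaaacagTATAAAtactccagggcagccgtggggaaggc
The Col6a1 and Col6a3 windows held none of the 5 motifs, and the Col6a2 window held 1 GC box. In the Col18a1 window there were 3 GC boxes and 1 CCAAT box, and all matches in these 2 windows were on the strand opposite to the one printed. Col10a1 alone of the 5 had a TATA box. No 2 of these matches overlapped. Counted over the full 250 bases before the RefSeq start, which for Col6a1 run past the GENCODE start into the gene, Col6a1 held 1 AP-1 match. Among all 32851 RefSeq windows of 250 bases, a GC box, with the letters GGGCGG, was present in 32.7%. The CCAAT box, searched by the letters of its name, was found in 33.8% of these windows, and the TATA box, written TATAAA, in 12.4%. For AP-1 the letters were TGANTCA and the share was 6.75%, and for the TEAD family of factors they were CATTCC and the share was 12.6%. The Col6a1 and Col18a1 windows were shorter, at 126 and 232 bases. RefSeq gives Col6a2 and Col18a1 a second start, each inside the annotated gene. The 250 bases before that second start held 3 GC boxes and 1 TEAD match for Col6a2 and 2 TEAD matches for Col18a1. The gene-level counts do not separate transcripts from different starts.

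Before the members are described, 3 facts of the libraries bear on every value. Totals ran from 16294128 (WT B) to 31121422 (WT E) counts. Pkn2 itself was at 80.1 to 108 CPM (counts scaled to a common library size with TMM factors) in KO tumours and at 62.9 to 138 CPM in WT tumours. Its fitted log2 difference was -0.002 (SE 0.21, edgeR adjusted p = 0.996). The RNA of these whole tumours thus did not show the deletion, and in these data the genotypes rest on the labels. The study describes the deletion in adult mice of this model as penetrant, from a western blot of PKN2 in pancreas. The share of counts on ribosomal RNA genes was 0.308 to 0.739% in KO tumours but 1.31% in WT A, 6.39% in WT B, 1.40% in WT C, 0.765% in WT D and 0.241% in WT E. Longer genes were under-represented in the same 3 WT libraries, with a Spearman correlation between exon length and relative level, across genes, of -0.533 in WT A, -0.462 in WT B and -0.196 in WT C, against 0.299 in WT D, 0.418 in WT E and 0.112 to 0.373 in KO tumours. Nothing in the labels assigns the samples to batches, so values within batches could not be given.

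Across the 10 chains, most fitted differences were towards higher levels in KO tumours, but none passed the test after adjustment. All 10 passed the filter on low counts and were tested among 16536 genes. With edgeR, 0 of 10 had an adjusted p under 0.05, a threshold passed by 3 genes in all (0.0181%). At an unadjusted p under 0.05, 2 of 10 were higher in KO tumours, Col6a1 and Col6a2, where 8.57% of all tested genes were higher, and 0 of 10 were lower, where 15.5% of all were. The log2 fold change was positive for 8 of 10 members and for 48% of all genes, and its median was 0.61 over the members and -0.03 over all genes. In 0 of 10 did the 2 groups separate completely, as they did towards higher values in 1.59% and towards lower values in 2.01% of all tested genes.

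**Figure D1:**
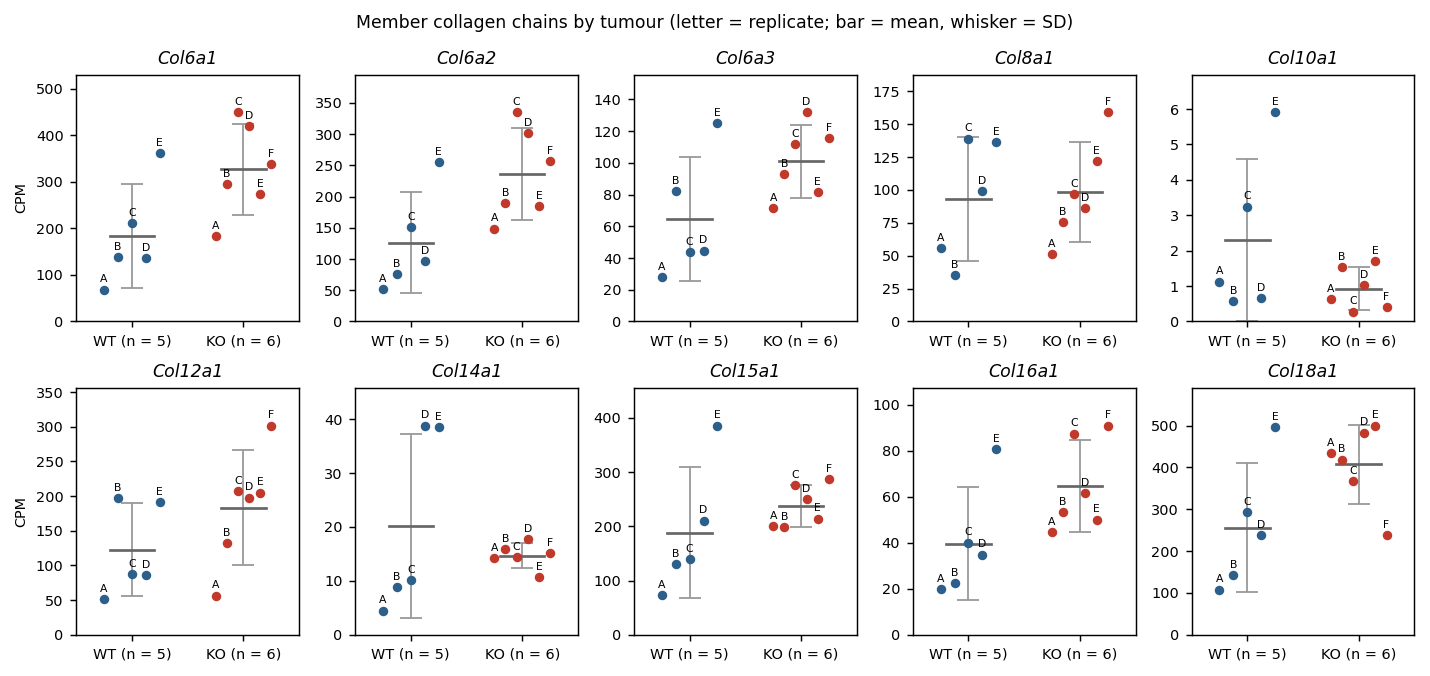
CPM (vertical axis, linear from 0) of each of the 10 chains in the 5 WT and 6 KO tumours, each point a tumour with its replicate letter, with the group mean (bar) and SD (whisker). WT A was the lowest of the 11 tumours for 8 of the 10 chains, and WT E was the highest WT tumour for 7 of them.

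The largest positive log2 fold changes among the members were those of 2 type VI chains, and neither passed the adjusted threshold. Col6a1 (ENSMUSG00000001119), which encodes the α1 chain, stood at 184, 317 and 449 CPM as the lowest, median and highest of the 6 KO tumours, and at 68.2, 138, 211, 136 and 361 CPM in WT A to E. WT A, B and D fell below every KO tumour, while WT E lay above 4 of the 6 KO tumours. The log2 fold change was 0.84 (SE 0.37, edgeR adjusted p = 0.187), a fold of 1.79.

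Col6a2 (ENSMUSG00000020241), the gene of the α2 chain, gave a similar picture. KO tumours had a lowest, median and highest value of 149, 223 and 335 CPM, and WT A to E had 51.8, 76.2, 152, 96.9 and 255 CPM. WT A, B and D were again below every KO tumour, and WT E was within the KO range. Its fold change was the largest positive one of the 10 chains, 0.90 on the log2 scale (SE 0.37, edgeR adjusted p = 0.166).

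Col6a3 (ENSMUSG00000048126) encodes the α3 chain, the largest of the trio and the source of the cleaved C-terminal peptide endotrophin. Its KO values were 71.3 CPM at the lowest, 102 at the median and 132 at the highest, and its WT values were 27.9, 82.1, 43.8, 44.6 and 125 CPM in A to E. WT A, C and D fell below all KO tumours here, and WT B did not, although WT B was among the 3 lowest tumours for both other chains. The log2 fold change was 0.64 (SE 0.33, edgeR adjusted p = 0.254).

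Ratios between the 3 chains were taken within each tumour, which removes the library scaling but not the length trend described above. Per kilobase of the principal transcript, Col6a1 was at 79.6 ± 23.9 CPM in the 6 KO and 44.6 ± 27.2 in the 5 WT tumours (mean ± SD), Col6a2 at 59.7 ± 18.6 and 32.0 ± 20.5, and Col6a3 at 11.2 ± 2.54 and 7.19 ± 4.34. In these units RNA of the α3 chain was thus below that of the other two in all 11 tumours, in both genotypes. The log2 ratio of Col6a2 to Col6a1 counts was -0.47 ± 0.12 in KO and -0.54 ± 0.18 in WT tumours (SD), a difference of 0.07 (exact two-sided permutation test over 462 splits, p = 0.463). Only WT B stood apart, at -0.85, with the other 4 WT tumours between -0.50 and -0.40. The ratio of Col6a3 to Col6a1 was -1.67 ± 0.21 in KO and -1.49 ± 0.55 in WT tumours, a difference of -0.18 (exact permutation p = 0.491) that became 0.01 without WT B, whose ratio was -0.75. Relative to Col1a1, the α1 chain of fibrillar collagen I, Col6a1 was higher by 0.44 in KO tumours, with 4 of 6 above the highest WT tumour and KO A and KO F inside the WT range (exact permutation p = 0.0584, 0.234 after adjustment over the 8 ratios tested). The smallest p this design allows is 0.00216.

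**Figure D2:**
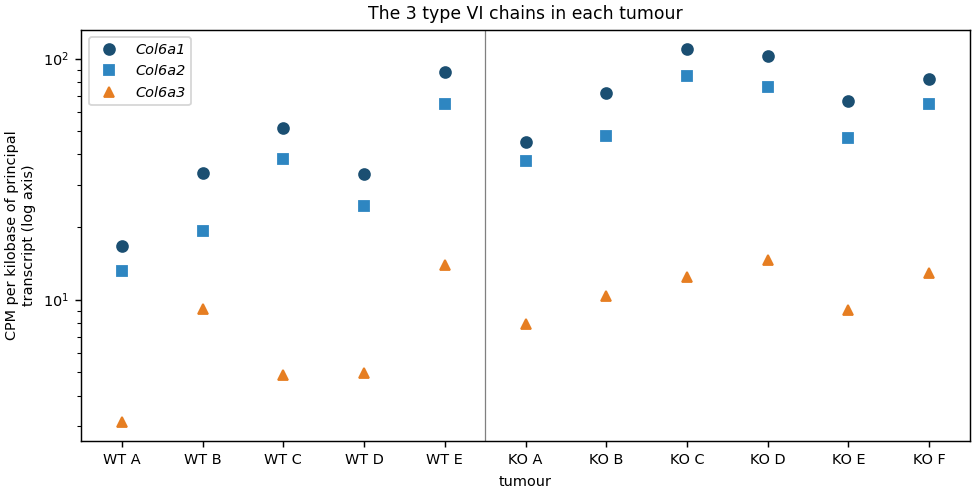
CPM per kilobase of principal transcript (vertical axis, log scale) of the 3 type VI chains in each of the 11 tumours, WT on the left and KO on the right. The order Col6a1, Col6a2, Col6a3 was the same in every tumour, and the gap between Col6a3 and the others was smallest in WT B.

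Among the FACIT chains, Col12a1 and Col16a1 had positive and Col14a1 negative log2 fold changes, none past the adjusted threshold. Col12a1 (ENSMUSG00000032332, chr9:79598991-79718831, minus strand) encodes collagen XII, a fibril-surface collagen of dense connective tissue. In KO tumours it ran from 56.6 over a median of 201 to 302 CPM, and in WT A to E it was 50.9, 198, 87.2, 86.3 and 192 CPM. WT B and WT E were near the KO median, and KO A was near the lowest WT tumour. KO C, D, E and F, 4 of 6, lay above every WT tumour, KO D only just (197.8 CPM against 197.6 in WT B). The groups overlapped (log2 fold change 0.58, SE 0.42, edgeR adjusted p = 0.404). Its principal transcript is the longest of the 10, at 11511 bases, and its highest WT value came from WT B, a library in which long genes were under-represented.

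Col14a1 (ENSMUSG00000022371, chr15:55307750-55520803, plus strand) encodes collagen XIV, a close relative of collagen XII that also binds fibrils. Its KO values were narrow, 10.7 to 17.7 CPM with a median of 14.8, while WT A to E were at 4.47, 8.84, 10.2, 38.8 and 38.6 CPM. WT tumours lay on both sides of the KO range, 3 below it and 2 above, so that the SD of log2 CPM was 0.243 in KO and 1.38 in WT tumours. The log2 fold change, -0.46 (SE 0.47, edgeR adjusted p = 0.562), averages over these 2 sets of WT tumours, and it was -0.09 without WT E and -0.99 without WT A and B. The log2 ratio of Col12a1 to Col14a1 was 3.49 ± 0.87 in KO and 2.90 ± 1.25 in WT tumours (SD), a difference of 0.58 (exact permutation p = 0.381). It was 0.15 without WT D, 0.98 without WT B and 1.30 without WT A and B. Col12a1 against Col1a1 differed by 0.05 (exact permutation p = 0.900).

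Col16a1 (ENSMUSG00000040690, chr4:130047840-130099283, plus strand) encodes collagen XVI, a minor component found in small amounts with fibrils and basement membranes. It stood at 44.5, 57.4 and 91.0 CPM in KO tumours (lowest, median, highest) and at 20.0, 22.4, 40.0, 34.9 and 80.8 CPM in WT A to E. Here 4 of 5 WT tumours were below every KO tumour, and WT E was above 4 of the 6. The log2 fold change was 0.70 (SE 0.34, edgeR adjusted p = 0.228).

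Both multiplexins were abundant. Col15a1 (ENSMUSG00000028339, chr4:47208161-47313167, plus strand), whose product sits beneath endothelial cells, muscle and fat cells, had KO values of 199, 232 and 287 CPM (lowest, median, highest) and WT values of 73.3, 130, 140, 210 and 386 CPM in A to E. WT A to C were below all KO tumours and WT E was above them all, and the log2 fold change was 0.34 (SE 0.33, edgeR adjusted p = 0.548). An exon of this gene overlaps Gm12426 on the other strand, and the strand setting of the counting step is not given in the sources used here.

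Col18a1 (ENSMUSG00000001435), the source of endostatin, ran from 238 over a median of 427 to 500 CPM in KO tumours and was at 108, 142, 294, 238 and 497 CPM in WT A to E. KO F was the lowest KO tumour and matched WT D, and the other 5 KO tumours exceeded 4 of the 5 WT tumours. The log2 fold change was 0.67 (SE 0.35, edgeR adjusted p = 0.254), or 1.59-fold.

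To place the multiplexins against the network they border, each was set against Col4a1, the α1 chain of basement membrane collagen IV. The log2 ratio of Col15a1 to Col4a1 was -1.76 ± 0.22 in KO and -1.36 ± 0.22 in WT tumours (SD), a difference of -0.40 in which 4 of 6 KO tumours lay below every WT tumour (exact permutation p = 0.0260, 0.208 after adjustment over the 8 ratios). The 2 others, KO C and KO F, lay in the WT range. The principal transcript of Col4a1 is longer than that of Col15a1, and such a ratio keeps the length trend of its library. WT A, B and C, where long genes were under-represented, were at -1.01, -1.28 and -1.50, and WT D and E at -1.43 and -1.57. The part of length in this difference was not tested. Leaving out KO A, B, D or E in turn gave an exact permutation p of 0.0556 each time, with differences from -0.39 to -0.36, and leaving out WT A and B together gave -0.26 (p = 0.131). No such difference was seen for Col18a1 to Col4a1, -0.11 (exact permutation p = 0.660), or for Col18a1 to Col15a1, 0.29 (exact permutation p = 0.351).

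**Figure D3:**
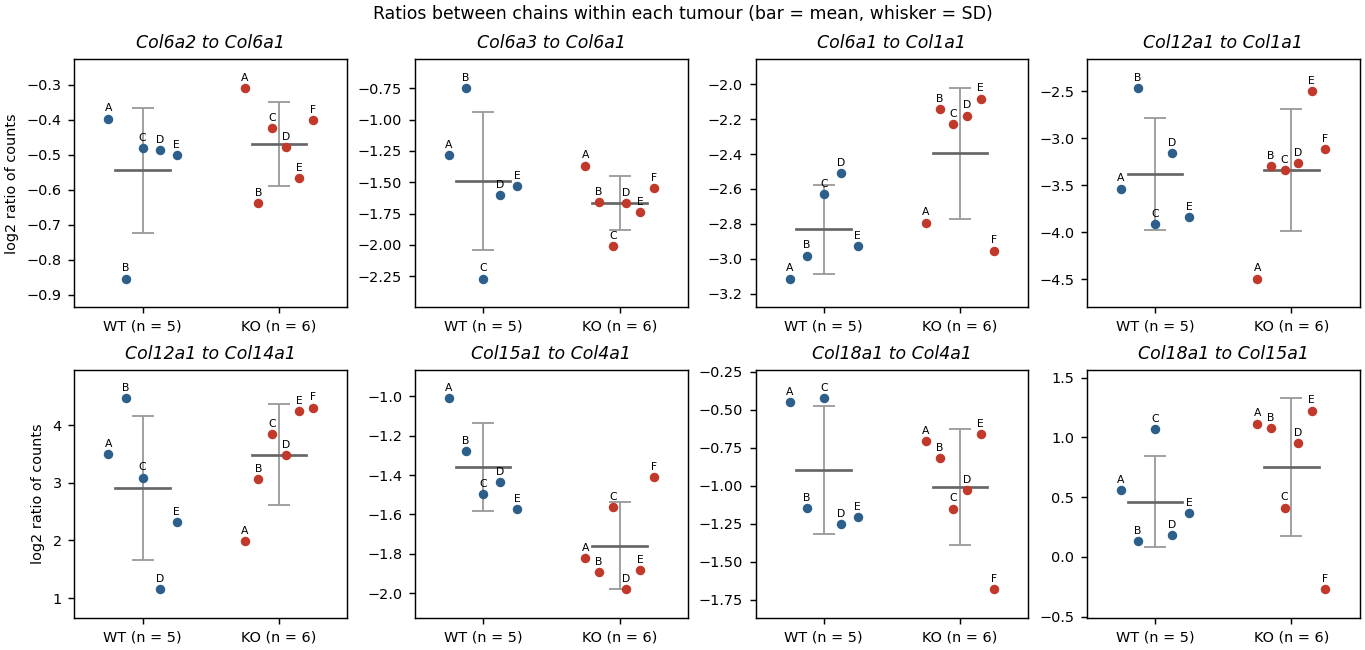
The log2 ratio of counts (vertical axis, 1 count added to each chain) for the 8 pairs compared, by tumour with its letter, with group mean (bar) and SD (whisker). For Col15a1 to Col4a1, KO A, B, D and E lie below all 5 WT tumours; for Col6a1 to Col1a1, KO B, C, D and E lie above them.

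For the short-chain network collagens, the log2 fold change was near 0 for Col8a1 and negative for Col10a1, with neither past the adjusted threshold. Col8a1 (ENSMUSG00000068196, chr16:57624258-57754737, minus strand), a chain of collagen VIII, the hexagonal lattice collagen of vessel walls and Descemet's membrane, was at 51.1, 91.5 and 159 CPM in KO tumours (lowest, median, highest) and at 55.8, 35.2, 139, 99.3 and 136 CPM in WT A to E. Its log2 fold change was 0.08 (SE 0.36, edgeR adjusted p = 0.913), and it turned to -0.27 once the ribosomal RNA share entered the fit and to -0.35 without WT A and B.

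Col10a1 (ENSMUSG00000039462, chr10:34389981-34397085, plus strand), the collagen of hypertrophic cartilage, was close to the limit of detection, with 7 to 200 counts per library where 3 counts equal 0.0887 to 0.250 CPM. It reached 0.278, 0.823 and 1.71 CPM in KO tumours (lowest, median, highest) and 1.13, 0.584, 3.24, 0.666 and 5.91 CPM in WT A to E. The log2 fold change was -1.33 (SE 0.65, edgeR adjusted p = 0.231) and became -0.60 without WT E, and WT C and WT E were the only tumours above the KO range. An exon of Nt5dc1 overlaps the gene on the other strand. Cartilage markers listed beside it were Col2a1 at 0 to 0.080 CPM in KO and 0 to 0.043 in WT tumours, Matn1 at most 4 counts and Matn3 at most 11 counts in any library, whereas Acan, an aggregating proteoglycan, was at 31.6 to 86.0 CPM in KO and 18.9 to 113 in WT tumours and Ihh at 0.626 to 18.3 and 1.17 to 17.5.

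Levels per kilobase of principal transcript set the chains in order over all 11 tumours. Col18a1 was highest (70.7 ± 29.7 CPM per kilobase, SD), followed by Col6a1 (63.7 ± 30.3), Col6a2 (47.1 ± 23.5) and Col15a1 (41.6 ± 16.5). A second tier held Col8a1 (18.8 ± 7.83), Col12a1 (13.5 ± 6.85), Col16a1 (10.2 ± 4.74) and Col6a3 (9.38 ± 3.90), and Col14a1 (3.02 ± 1.98) and Col10a1 (0.497 ± 0.533) came last. Taking the log2 ratio within each tumour, 4 steps of this order exceeded 1 SD of the ratio. These were Col6a1 over Col6a2, kept in all 11 tumours, Col15a1 over Col8a1, kept in 10, Col6a3 over Col14a1, kept in 10, and Col14a1 over Col10a1, kept in all 11. The other 5 neighbours did not differ beyond that spread. With the length of all annotated exons in place of the principal transcript, a setting added after the values were seen, Col6a1 (59.6 CPM per kilobase) came before Col18a1 (48.2) and Col15a1 (33.9) before Col6a2 (22.3).

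WT A and WT E lay at the ends of the range. Summed over the 10 chains, KO tumours had 1207 to 1950 CPM, and WT A to E had 462, 832, 1120, 986 and 2078 CPM. WT E, the highest of all 11, was above the KO median for 9 of 10 chains and above every KO tumour for 3. Spread on the log2 scale was larger in WT than in KO tumours for all 10, with a median SD of 0.879 in WT and 0.443 in KO. Of the sum, type VI chains made up 32.8 to 46.0% in KO and 28.1 to 36.3% in WT tumours.

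Leaving out WT E raised the counts of calls for the members and for all genes. Leaving out WT D gave 203 genes called higher and 651 lower, with 0 members called. Without WT E, 3.63% of 16731 tested genes passed the adjusted threshold as higher in KO tumours and 7.46% as lower. Of the 10 chains, 5 passed it, all as higher. These were Col6a1 at 1.24, Col6a2 at 1.33, Col6a3 at 1.03, Col16a1 at 1.14 and Col18a1 at 1.06 on the log2 scale (edgeR adjusted p from 0.0325 to 0.0447). Leaving out WT A and B together moved the values the other way. No gene was then called in either direction, Col6a1 and Col6a2 were at 0.46 and 0.48, and Col15a1 stood at -0.05. At an unadjusted p under 0.05, 0 chains were higher and 2, Col10a1 and Col14a1, were lower. Of 17031 genes tested in that fit, 2374 were at that level, a count not split by direction. The median log2 fold change of the 10 chains was 0.92 without WT E and 0.28 without WT A and B, beside -0.01 and -0.03 over all genes. The ribosomal RNA share was also made a term of the fit, although it cannot be told apart from genotype for WT A to C. Col6a1 was then at 0.68 and Col6a2 at 0.69, neither with an unadjusted p under 0.05. Col16a1, Col18a1 and Col15a1 fell to 0.46, 0.43 and 0.15, while Col6a3 and Col12a1 rose from 0.64 and 0.58 to 0.68 and 0.78. Col10a1, at -1.74, was lower at an unadjusted p under 0.05, a level reached by 1948 genes in either direction. With an offset for gene length, the chains with the longest transcripts moved most, Col6a3 to 0.38 and Col12a1 to 0.22. The part of RNA quality in these differences was not tested beyond these fits. DESeq2, which called 595 genes higher (3.21%) and 900 lower (4.85%) of 18538, called 0 of the 10 chains.

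**Figure D4:**
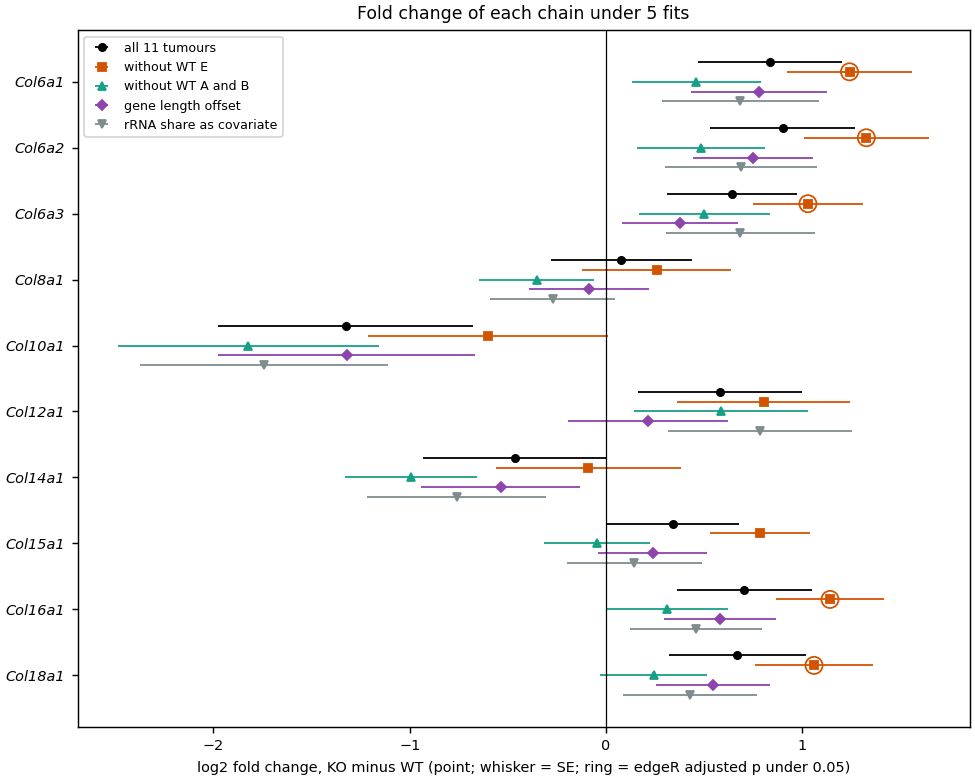
Fitted log2 fold change, KO minus WT (horizontal axis), of each chain with its SE in the fit of all 11 tumours and in 4 alternative fits, with a ring where the edgeR adjusted p was under 0.05. Rings appear only for the fit without WT E, on 5 chains, and Col8a1 lies on both sides of 0.

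**Figure D5:**
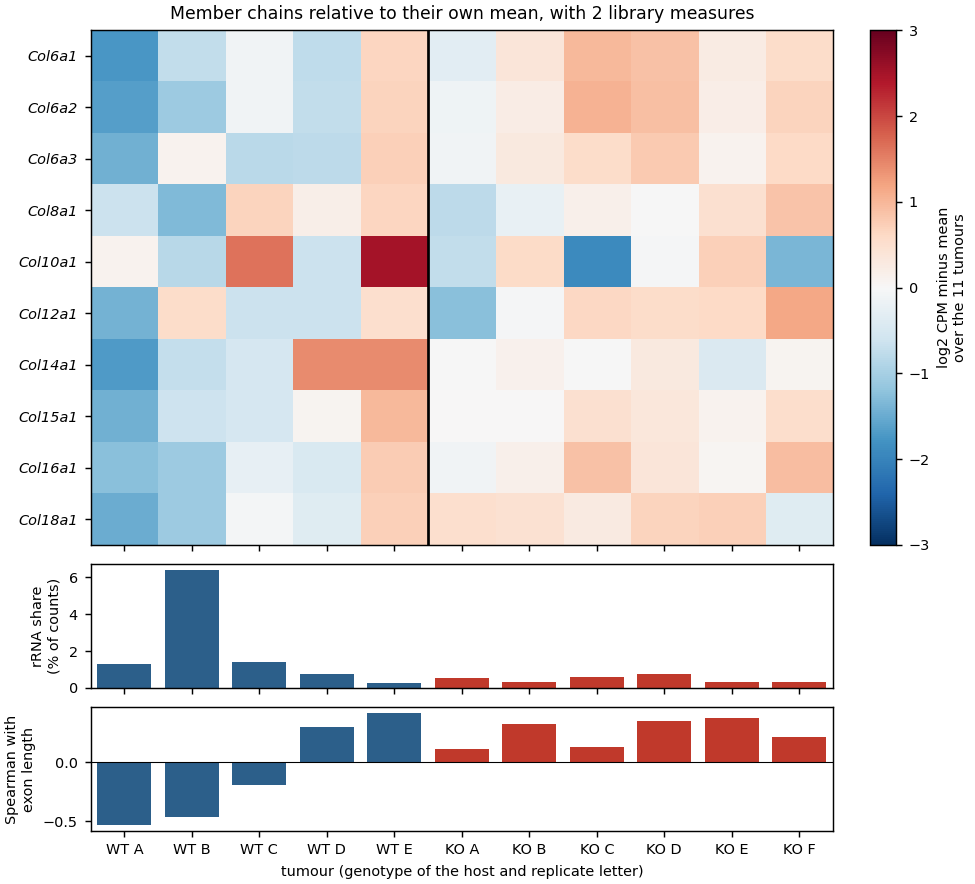
Upper panel: log2 CPM of each chain minus its mean over the 11 tumours (colour). Lower panels: the ribosomal RNA share of counts in percent, and the Spearman correlation across genes between exon length and relative level, both as bars per tumour. WT A is low for nearly every chain, WT E high, and the ribosomal RNA share is highest in WT B at 6.39%.

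Within genotypes, the levels of the chains varied together across tumours. After the genotype mean was removed, all 45 pairs of chains had a positive Pearson correlation of log2 CPM over the 11 tumours, with a median of 0.619. The Spearman correlation had a median of 0.436 and was negative for 3 pairs, Col10a1 with Col12a1 (-0.127), Col12a1 with Col18a1 (-0.0909) and Col6a3 with Col10a1 (-0.0182). These values are a description, since the pairs share libraries, depth and the length trend above. The highest Pearson value was that of Col6a1 with Col6a2 (r = 0.977), followed by Col6a2 with Col16a1 (r = 0.935) and Col14a1 with Col15a1 (r = 0.889). Col6a3 had similar values with Col6a1 (r = 0.817) and Col12a1 (r = 0.809) and a lower one with Col6a2 (r = 0.734). The lowest Pearson value was that of Col10a1 with Col12a1 (r = 0.0437).

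Over 14888 other genes with a mean of at least 1 CPM, the 3 most similar in this measure were named for each chain, except that only 2 are given for Col16a1. Dchs1, a large protocadherin, and Dlc1 headed the list for both Col6a1 (r = 0.950 and 0.939) and Col6a2 (r = 0.973 and 0.954), followed by Thbs1 for the former and Coro2b for the latter. For Col6a3 they were Capn15, Camk2g and Ednra (r = 0.928 to 0.930). Col16a1 came with Cpz and Fndc1 (r = 0.970 and 0.968), and Col12a1 with Cacna1c, Kcnma1 and Dennd2a (r = 0.902 to 0.929). Col14a1 was most like Heatr5b, Nin and Ddx17 (r = 0.970 to 0.976). Col15a1 was most like Nynrin, the collagen IV chain gene Col4a2 and Ptprm (r = 0.967 to 0.976), and Col18a1 like Tspan9, Vcl and Slc38a2 (r = 0.948 to 0.956). For Col8a1 the genes were Cemip2, the chaperone gene Hspa5 and the integrin gene Itgav (r = 0.928 to 0.934), and for Col10a1 they were Sez6l2, Usp5 and Elp2 (r = 0.859 to 0.893).

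Other collagen genes were read from the same fit by list. Of the remaining type VI chains, Col6a4 and Col6a6 did not reach the filter and Col6a5 had a log2 fold change of -0.87 (SE 1.22). It ran from 0 to 6.53 CPM in WT tumours and from 0.176 to 2.16 in KO tumours. Nearly all of its WT mean, 1.33 CPM, came from a single tumour, so the negative value rests on that tumour. Among the remaining FACIT genes, 3 of 6 were tested with 0 past an unadjusted p of 0.05, and Col9a1 and Col19a1 had 0 counts in all libraries. Col8a2, the partner chain of Col8a1, was at 0.47 (SE 0.39). Of 9 transmembrane and other minor collagen genes, 6 were tested, and Col24a1 was higher (1.06, SE 0.46) by its unadjusted p alone. Col24a1 and Col27a1 encode fibril-forming chains as well but were counted in that list, and Col27a1 was at -0.32 (SE 0.27). All 7 genes listed as fibrillar scaffold, those of types I, III, V and XI, had positive values with a median of 0.45, of which Col5a2 (0.72, SE 0.32) passed the same unadjusted level, and all 8 basement membrane genes had positive values with a median of 0.63, of which the perlecan gene Hspg2 (0.69, SE 0.28) and the laminin gene Lamc1 (0.80, SE 0.37) passed it. The median of the 10 chains, 0.61, lay beside these, and no difference between the lists was tested.

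Genes that bind, build or cut these collagens were also counted, again with 0 at an adjusted p under 0.05 in each list. Of 15 receptors and binding partners, 12 had positive values and 4 were higher at an unadjusted p under 0.05, beside 48% positive and 8.57% higher over all tested genes. They were Antxr1, a receptor known to bind collagen VI (0.75, SE 0.27), the integrin β1 gene Itgb1 (0.52, SE 0.23), the collagen receptor kinase gene Ddr1 (0.59, SE 0.19) and Lair1, an inhibitory collagen receptor of leukocytes (0.70, SE 0.21). For Lair1 the groups did not overlap, at 43.3 to 91.2 CPM in KO and 26.3 to 40.3 in WT tumours, as was so for 1.59% of all genes. Of 13 genes for chain assembly and secretion, 10 had positive values, and the lysyl hydroxylase gene Plod1 (0.59, SE 0.20) and the prolyl 3-hydroxylase gene P3h1 (0.49, SE 0.20) passed the unadjusted level. Of 9 protease genes, 7 had positive values and 4 passed it, namely Tll1 (1.95, SE 0.52), Mmp2 (1.03, SE 0.39), Mmp9 (0.95, SE 0.37) and Bmp1 (0.64, SE 0.25). None of the genes in these lists was lower at an unadjusted p under 0.05.

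Markers of the cells that a tumour piece could hold were read from the same data, and their part in the differences was not tested. Summed CPM of 7 fibroblast markers was 460 to 960 in KO and 429 to 832 in WT tumours, with 0 past an unadjusted p of 0.05 in either direction. Of 6 epithelial markers, 0 had a positive log2 fold change and 3 were lower at an unadjusted p under 0.05 (Epcam, Krt18 and Krt19), with a sum of 2469 to 4871 CPM in KO and 3062 to 7983 in WT tumours. Endothelial sums were 153 to 227 CPM in KO and 111 to 220 in WT tumours. Of 6 endothelial markers, 4 had positive values with a list median of 0.28, and Cldn5 was lower at an unadjusted p under 0.05 (-1.03, SE 0.46). Sums of pericyte and smooth muscle markers were 189 to 216 CPM in KO and 112 to 311 in WT tumours. Macrophage sums were 1525 to 2811 in KO and 1100 to 2012 CPM in WT tumours. All 5 macrophage markers had positive values, and 2 of them, Adgre1 and Csf1r, were higher at an unadjusted p under 0.05. Adipocyte markers summed to 1.33 to 36.5 in KO and 8.28 to 25.2 CPM in WT tumours. Adipoq and Plin1 were higher at an unadjusted p under 0.05, with WT means of 0.744 and 0.295 CPM. Cidec averaged 8.33 CPM in KO and 13.4 in WT tumours (log2 fold change -0.69, SE 0.50), and Retn was at 0.04 (SE 1.25). Mesothelial sums were 149 to 409 and 157 to 465 CPM. Schwann cell markers were nearly absent, at 0.564 to 1.87 and 1.03 to 2.36 CPM, with Sox10 at 0 in all WT tumours. Pancreatic acinar and islet markers were high in single tumours of both groups, up to 1336 and 287 CPM in WT E, the tumour with the highest sum of the 10 chains. Acinar sums were also 162 CPM in WT A and 87.5 in WT B, against 7.11 to 13.1 in the KO tumours other than KO E, and 1 acinar marker, Cela1, was lower in KO tumours (-1.96, SE 0.55) by its unadjusted p.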

How the data were processed

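RNA of 11 tumour pieces (6 KO, 5 WT) was sequenced from strand-specific libraries (NEB Next Ultra II Directional). According to the submitters' processing notes and the study's methods, reads were demultiplexed with bcl2fastq 2.19, trimmed with Trimmomatic, aligned to mm10 (GRCm38) with HISAT2 2.1.0 and counted over exons with HTSeq 0.11.2, keeping uniquely aligned reads. The authors deposited raw counts per gene, which are the unit of every test here, and a normalised table that was not used. Of 54232 identifiers, 54165 matched GENCODE M21.

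For each gene, edgeR 4.0.16 (R 4.3.3) gave a quasi-likelihood F-test, with TMM normalisation, filterByExpr and Benjamini-Hochberg adjustment over 16536 genes at 0.05. DESeq2 1.42.0 served as an alternative. CPM used TMM-scaled totals. Chain ratios were log2 of counts plus 1, compared by exact two-sided permutation of tumours and adjusted over 8 ratios. Likeness was Pearson's r of log2(CPM + 0.1) after removing genotype means. Genes named were the 10 members, their 3 most similar genes (1 of which is not reported here), the ratio partners and, per list, up to 4 genes by p among those at an unadjusted p under 0.05. A few further genes were named for being at or near 0, for completing a short list, or as markers, after their values were seen. The members and lists were chosen with earlier results of these data known. No pair of libraries of the same genotype agreed within sampling noise. Each sample is a separate animal, grouped by its label. Fits were tested on simulated counts before use.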

Additional observations from a re-analysis of the deposited data

Results flagged for a closer look

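In 60 groups of samples examined for a tumour far from the others of its genotype, 7 were found, where chance gives nominally about 1 in 20, or 3. The groups draw on the same 11 tumours and are not independent, so that number is only a rough guide. Among the chain ratios, the log2 ratio of Col6a2 to Col6a1 was -0.85 in WT B, with the other WT tumours between -0.50 and -0.40. WT B was also apart in its ribosomal RNA share, 6.39%, where the rest of its group had 0.241 to 1.40%. The other 5 were sums of marker genes of other cells. Macrophage markers summed to 2811 CPM in KO F and to 1525 to 1977 in the other KO tumours. Acinar markers summed to 516 CPM in KO E, against 7.11 to 13.1 in other KO tumours, and to 1336 CPM in WT E, against 12.7 to 162 in other WT tumours. Islet markers summed to 65.8 CPM in KO F, against 0 to 0.325, and to 287 CPM in WT E, against 0.0834 to 54.2. KO F held the highest KO values of Col8a1, Col12a1, Col15a1 and Col16a1 and the lowest of Col18a1, and WT E the highest WT values of 7 chains; the part of these cells in those values was not tested.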

How the results depend on the processing

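Each chain was refitted under 20 alternatives (19 for Col10a1, which did not reach 10 counts in every library). In these, 6 chains kept a positive and 1, Col10a1, a negative log2 fold change, and 3 changed sign. Col8a1 was -0.27 with the ribosomal RNA share as covariate, -0.089 with the length offset, -0.35 without WT A and B, and from -0.13 to 0.27 with single tumours left out. Col15a1 was -0.046 without WT A and B, and Col14a1 was 0.0098 with the replicate block. The cause of these changes was not tested. Leaving out single tumours gave 0 to 608 genes called higher and 0 to 1248 lower, 2732 to 5367 genes at an unadjusted p under 0.05, 0 to 5 members called, and 0 to 6 members higher and 0 to 1 lower at an unadjusted p. The members higher at that level numbered 0 without KO C, KO D, WT A, WT B or WT D, 1 without WT C and 6 without WT E. Over all genes, 3424 were at that level without KO C, 3288 without KO D, 3357 without WT A and 2732 without WT B. There were 4919 without WT D, 3989 without WT C and 5367 without WT E. These totals were not split by direction. The log2 fold change of Col6a1 ranged from 0.63 to 1.24, of Col6a2 from 0.70 to 1.33, of Col6a3 from 0.45 to 1.03, of Col16a1 from 0.54 to 1.14 and of Col18a1 from 0.48 to 1.06, each highest without WT E.

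Genes called higher and lower numbered 39 and 6 with no filter, 8 and 1 with the replicate block, 105 and 159 with the length offset, 595 and 900 by DESeq2, 0 and 0 without WT A and B, 0 higher with at least 10 counts in every library, and 1 lower with the ribosomal RNA covariate. Genes at an unadjusted p under 0.05 numbered 3972 in the main fit and 4885 both with no filter and by DESeq2. They numbered 2615 with the block, 1948 with that covariate and 2374 without WT A and B. These counts hold both directions, so no share of genes higher or lower stands beside the member counts that follow. Members higher at an unadjusted p numbered 4 with no filter, 5 with the block, and 0 with the covariate or without WT A and B, while members lower numbered 1 with the covariate, 2 without WT A and B and 1 by DESeq2.

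Of the ratios, 4 changed direction in at least 1 of 16 alternatives. Col6a3 to Col6a1 was 0.14 without WT A and B and from -0.37 to 0.0075 with single tumours left out, and Col6a2 to Col6a1 ranged from -0.0031 to 0.11. With single tumours left out, Col12a1 to Col1a1 ranged from -0.12 to 0.28 (0.30 without WT A and B), Col18a1 to Col4a1 from -0.20 to 0.025, and Col12a1 to Col14a1 from 0.15 to 0.98 (1.30 without WT A and B). Col6a1 to Col1a1 ranged from 0.37 to 0.55 and was 0.29 without WT A and B, with an exact permutation p of 0.0397 without KO A, 0.0238 without KO F and 0.25 without WT A and B. Col15a1 to Col4a1 ranged from -0.47 to -0.31 and was -0.26 without WT A and B.

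Replicate letters are shared by the groups, and the correlations of same-letter deviations ran from -0.135 to 0.118. Tumours of different letters were not compared in this way, so these values cannot decide whether the letters pair the tumours. With the letter as replicate block, Col15a1 to Col4a1 was -0.47 (exact permutation by sign flips, p = 0.0625, the smallest that 5 pairs allow) and Col18a1 to Col4a1 was 0.025. Depth limits only Col10a1, which had 7 to 200 counts per library.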
